A study of Mus musculus with 24 samples.

Results

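The resident cardiac macrophage genes examined here were the 8 genes Lyve1, Timd4, Folr2, Mrc1, Cd163, Cbr2, F13a1 and Retnla, chosen by symbol from the 14912 genes of the deposited table, and all 8 were measured and passed the filter on low values. RNA from the left ventricle of male wild-type C57BL/6J mice was sequenced after 7 days of infusion from a subcutaneous osmotic mini-pump. The hypertensive-LVH group (n = 12) received angiotensin II (ANG II) at 1500 ng/kg/min and the control group (n = 12) received saline. The age of the mice is not given in the sources used here, and each heart was flushed with saline before the ventricle was taken. The tissue is the whole ventricle, in which fewer cells of a type and less RNA per cell cannot be told apart.

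Macrophages that live in the healthy heart are seeded in part before birth and renew themselves locally, while other macrophages are replaced by monocytes that arrive from the blood through the chemokine receptor CCR2. The long-lived cells, many of which lie along vessels, are commonly recognised by LYVE1, TIM-4 and FOLR2, and they take up dying cells and debris. The members fall into receptors for hyaluronan (Lyve1), phosphatidylserine on dying cells (Timd4), folate (Folr2), mannosylated glycoproteins (Mrc1) and the haemoglobin-haptoglobin complex (Cd163), enzymes (Cbr2, a carbonyl reductase, and F13a1, the catalytic subunit of coagulation factor XIII) and a secreted protein of the resistin family that interleukin-4 induces through STAT6 (Retnla). Lyve1 also marks lymphatic endothelium, and F13a1 is also present in monocytes and platelets.

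Of the members, 5 passed the test of hypertensive-LVH against control left ventricles, and they did not move together. Cd163, Lyve1 and Mrc1 rose, to 1.56, 1.46 and 1.35 times the control mean FPKM, whereas Retnla fell to 0.326 and Timd4 to 0.544 of it. Folr2, Cbr2 and F13a1 did not pass. Passing means an adjusted p under 0.05 (limma, Benjamini-Hochberg over 14026 genes), which 33.5% of all tested genes reached, 20.9% as higher and 12.6% as lower. By the stricter criterion of the study, which adds an absolute log2 fold change over 0.5 for a differentially expressed gene (DEG), 2 members were DEGs, Cd163 as higher and Retnla as lower, where 5.92% of all tested genes were DEGs, 4.52% higher and 1.4% lower. The median log2 fold change of the 8 members was 0.14, against 0.05 over all tested genes.

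The regions just before the start sites of the 4 genes that passed and have an entry in the RefSeq promoter table (GRCm38.p6) are shown because 2 of them rose and 2 fell. Each is printed 5′ to 3′ on the strand of its gene, up to the first base of the gene in GENCODE vM21, with motif matches in capitals.
Retnla, chr16:48842359-48842550, plus strand: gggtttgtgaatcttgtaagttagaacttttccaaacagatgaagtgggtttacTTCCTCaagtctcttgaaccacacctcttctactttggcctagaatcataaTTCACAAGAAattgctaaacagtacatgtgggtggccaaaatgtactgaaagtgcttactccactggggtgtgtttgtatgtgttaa
Timd4, chr11:46810549-46810798, plus strand: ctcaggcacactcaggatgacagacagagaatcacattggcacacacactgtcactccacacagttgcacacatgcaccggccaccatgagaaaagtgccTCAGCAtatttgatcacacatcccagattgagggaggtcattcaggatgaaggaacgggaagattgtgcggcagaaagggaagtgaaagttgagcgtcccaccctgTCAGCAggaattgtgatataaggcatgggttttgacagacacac
Mrc1, chr2:14229164-14229391, plus strand: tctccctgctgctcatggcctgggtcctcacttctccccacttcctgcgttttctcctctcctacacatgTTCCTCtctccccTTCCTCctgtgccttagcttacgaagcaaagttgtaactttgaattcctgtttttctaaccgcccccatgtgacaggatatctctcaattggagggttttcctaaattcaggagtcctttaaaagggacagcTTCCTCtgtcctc
Cd163, chr6:124304401-124304650, plus strand: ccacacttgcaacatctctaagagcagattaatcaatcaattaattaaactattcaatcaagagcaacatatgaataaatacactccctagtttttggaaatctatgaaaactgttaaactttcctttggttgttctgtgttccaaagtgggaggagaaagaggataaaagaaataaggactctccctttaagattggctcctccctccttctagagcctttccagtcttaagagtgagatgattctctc
The motifs searched on both strands of the 250 bases before each RefSeq start site were GAGGAA, a core of sites of the macrophage factor PU.1, found in 23.3% of 32851 promoters, TGCTGA, part of the MAF recognition element, found in 16.1%, and TTCNNNNGAA, a STAT6 site, found in 5.85%. Retnla held 1 match to each, the STAT6 match lying 145 to 136 bases before its start site. Its MAF match, 47 to 42 bases before the RefSeq start, lies inside the gene as GENCODE draws it and is not printed. Timd4 held 2 MAF matches and Mrc1 3 PU.1 matches, all read on the strand opposite to the gene, and Cd163 held none of the 3 motifs. Among the other members with an entry, Folr2 held a MAF match before each of its start sites, and Cbr2 and F13a1 each held 1 PU.1 match. A match is a string of letters and was not tested as a binding site.

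Retnla (chromosome 16, 48842551 to 48844461, plus strand, 4 exons), whose product RELMα is secreted by alternatively activated macrophages, had the largest change of the members. Its FPKM, the fragments of a gene scaled by transcript length and by the mapped fragments of the sample, ranged from 1.73 to 12.3 with a median of 7.48 in the control group, and from -0.61 to 4.73 with a median of 2.27 in the hypertensive-LVH group. Each of the 12 ANG II samples lay below the control median and 10 of 12 controls lay above every ANG II sample, so that the groups met only through control samples 1 and 6. The value of ANG II sample 5 is negative because the table had been adjusted after FPKM were computed. The mean was 7.02 ± 2.94 (SD, n = 12) in controls and 2.29 ± 1.44 (SD, n = 12) under ANG II, a log2 fold change on the log2(FPKM + 1) scale of -1.28 ± 0.26 (SE, limma, adjusted p = 0.000648). With a pseudocount of 0.01 in place of 1 it was -2.10 (adjusted p = 0.0211), where ANG II sample 5, set to 0, takes the lowest possible log2 level. Without that sample, and with the pseudocount of 1, the log2 fold change was -1.13 (limma, adjusted p = 0.00081).

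Timd4 (chromosome 11, 46810800 to 46844332, plus strand, 9 exons) encodes TIM-4, a receptor by which resident macrophages bind dying cells, and it had the lowest level of the members. Its FPKM ran from 0.927 to 2.14 in controls with a median of 1.21, and from 0.189 to 1.39 under ANG II with a median of 0.758. Of the 12 ANG II samples, 9 were below the lowest control, and ANG II samples 2, 6 and 10 overlapped the controls. The means were 1.36 ± 0.392 and 0.741 ± 0.373 (SD, n = 12 each), with a log2 fold change of -0.45 ± 0.11 (SE, limma, adjusted p = 0.00213). Because the pseudocount of 1 is close to the level of this gene, the log2 value understates the change in FPKM, and it was -0.90 with a pseudocount of 0.1 (adjusted p = 0.00307) and -1.02 with 0.01 (adjusted p = 0.00388), where Timd4 was a DEG.

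Cd163 (chromosome 6, 124304656 to 124330527, plus strand, 17 exons), the scavenger receptor that clears haemoglobin bound to haptoglobin, rose above the control median in every ANG II sample. Control values ran from 3.55 to 7.77 FPKM (median 5.88) and ANG II values from 6.17 to 12.8 (median 8.65). Of the 12 ANG II samples, 7 exceeded the highest control and the others fell within the control range. The means were 5.6 ± 1.23 and 8.73 ± 2.19 FPKM (SD, n = 12 each), and the log2 fold change was 0.55 ± 0.11 (SE, limma, adjusted p = 0.000783). The change lay near the limit for a DEG, and Cd163 passed but was no DEG under quantile normalization (0.47, adjusted p = 0.0015) or after each sample's trend with transcript length was removed (0.49, adjusted p = 0.000772).

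Lyve1 (chromosome 7, 110850607 to 110863239, minus strand, 6 exons) encodes a hyaluronan receptor that perivascular macrophages share with lymphatic endothelium. It ranged from 8.43 to 15.5 FPKM (median 13.4) in controls and from 12.0 to 29.2 (median 17.0) under ANG II, and 8 of 12 ANG II samples exceeded every control. ANG II samples 6, 1 and 12 stood above the other ANG II samples, at 29.2, 27.1 and 26.5 FPKM. The mean rose from 12.8 ± 2.33 to 18.7 ± 5.98 FPKM (SD, n = 12 each), a log2 fold change of 0.48 ± 0.14 (SE, limma, adjusted p = 0.00928).

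Lymphatic endothelial markers were higher as well. Of 6 markers, 4 rose and 0 fell, with Pdpn at 0.72 ± 0.20 and Mmrn1 at 0.62 ± 0.14 (log2 fold change ± SE), while Prox1, the factor that defines lymphatic identity, was at -0.21 ± 0.11 (limma, adjusted p = 0.139). The summed level of the 6 markers ran from 37.7 to 93.1 FPKM in controls and from 49.9 to 138 FPKM under ANG II, no marker of the list being at 0 in its group means. Ccl21a, the most abundant of them (means 36 and 49.7 FPKM), did not pass (0.39 ± 0.25, limma, adjusted p = 0.241). The part of lymphatic endothelial cells in the rise of Lyve1 was not tested.

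Mrc1 (chromosome 2, 14229392 to 14332057, plus strand, 30 exons), the mannose receptor CD206, overlapped more between the groups. It ran from 4.68 to 11.3 FPKM in controls (median 8.55) and from 6.77 to 18.9 under ANG II (median 10.1). Of 12 ANG II samples, 10 were above the control median but only ANG II samples 6 and 8 were above the highest control. The means were 7.99 ± 1.76 and 10.8 ± 3.32 FPKM (SD, n = 12 each), and the log2 fold change of 0.37 ± 0.13 passed narrowly (SE, limma, adjusted p = 0.0304). It no longer passed without ANG II sample 6 (0.30, adjusted p = 0.0542), ANG II sample 8 (0.32, adjusted p = 0.0591), control sample 5 (0.34, adjusted p = 0.0532) or control sample 6 (0.31, adjusted p = 0.0568). Without samples 4 to 6 of each group it fell to 0.19 (adjusted p = 0.25).

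F13a1 (chromosome 13, 36867178 to 37050244, minus strand, 15 exons), whose product cross-links fibrin and matrix, ran from 8.39 to 17.9 FPKM in controls (median 13.8) and from 11.7 to 27.8 under ANG II (median 16.3). The highest control was exceeded by 4 ANG II samples. The means were 13.5 ± 2.53 and 16.8 ± 4.74 FPKM (SD, n = 12 each), with a log2 fold change of 0.27 ± 0.12 (SE, limma, adjusted p = 0.0836). Without ANG II sample 12, which had the lowest value of its group, the change was 0.31 and passed (adjusted p = 0.0473).

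Folr2 (chromosome 7, 101839988 to 101857194, minus strand, 6 exons), the folate receptor beta of macrophages, ran from 7.13 to 14.5 FPKM in controls (median 11.0) and from 3.7 to 14.8 under ANG II (median 9.85). The ranges overlapped almost entirely, with 3 ANG II samples below and 1 above the control range. The means were 10.8 ± 2.02 and 9.62 ± 3.31 FPKM (SD, n = 12 each), and the log2 fold change was -0.21 ± 0.15 (SE, limma, adjusted p = 0.304), with a 95% interval from -0.53 to 0.11. Cbr2 (chromosome 11, 120729489 to 120732114, minus strand, 8 exons), the most abundant member, ran from 20.5 to 38.0 FPKM in controls (median 28.7) and from 9.28 to 52.0 under ANG II (median 31.6). Its means were 29.2 ± 5.73 and 31.5 ± 12.3 FPKM (SD, n = 12 each) and its log2 fold change 0.01 ± 0.19 (SE, limma, adjusted p = 0.964), with a 95% interval from -0.38 to 0.41. The samples of Cbr2 spread more widely under ANG II, with a coefficient of variation of 39%, than in controls, with 19.6%.

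**Figure D1:**
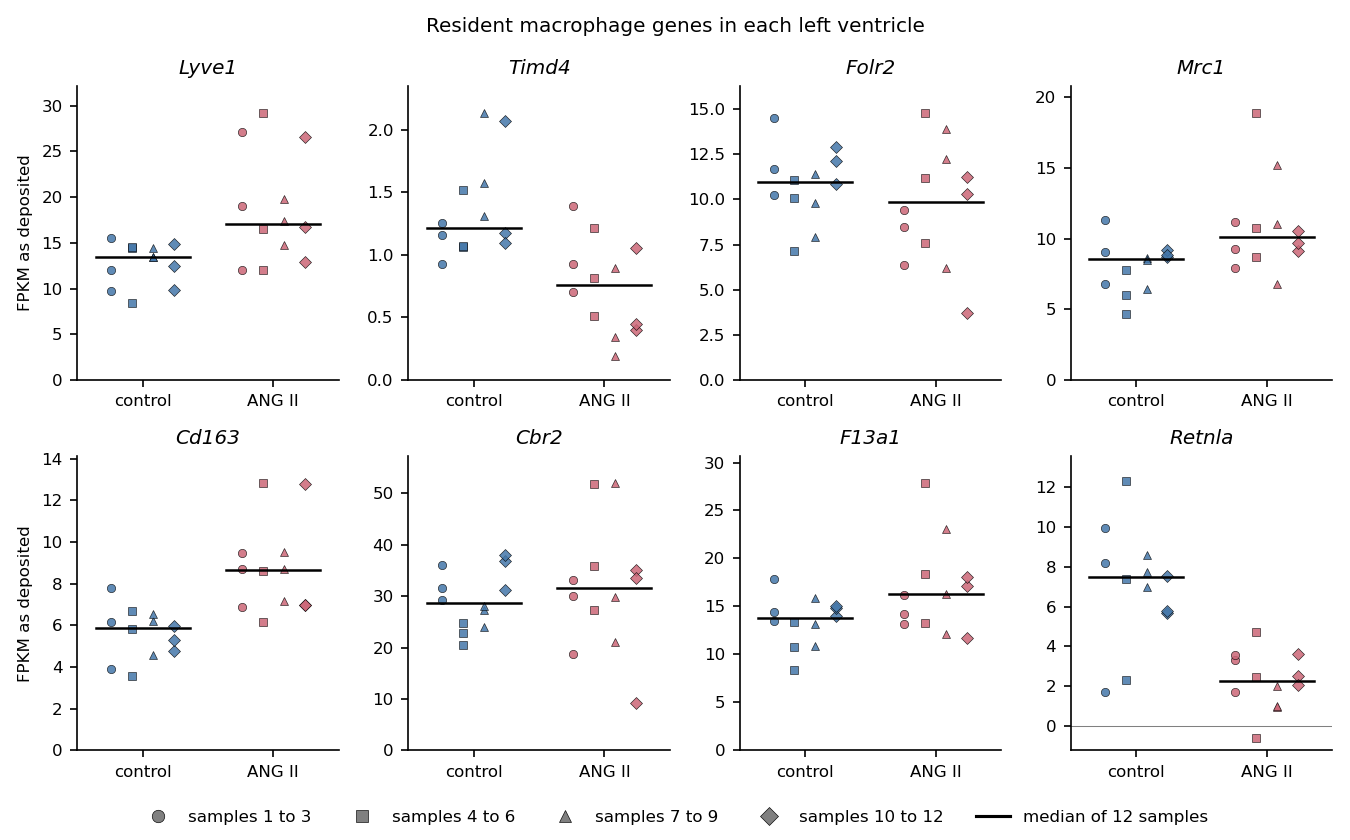
FPKM as deposited of the 8 members in each of 24 left ventricles, by group, with marker shape for the set of samples in which the values were adjusted and a line at the median of 12 samples. Retnla and Timd4 lie lower and Cd163 and Lyve1 higher in most ANG II samples, whereas Folr2 and Cbr2 overlap almost entirely, and 1 value of Retnla is negative.

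ANG II sample 6 had the highest value of its group in 6 of the 8 members, all but Timd4 and Cbr2, and in Cbr2 it was nearly level with the highest (51.7 against 52.0 FPKM in ANG II sample 7). Control sample 6 had the lowest value of its group in 5 members, Lyve1, Folr2, Mrc1, Cd163 and F13a1. ANG II sample 12 broke this pattern, with the lowest Folr2, Cbr2 and F13a1 of its group and nearly the highest Cd163 (12.8 FPKM).

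The order of the levels also differed between the groups. FPKM divides by transcript length, so levels can be set against each other, although the later adjustment of each gene limits this to coarse differences. In controls Cbr2 (29.2 FPKM) stood above F13a1 (13.5) in 12 of 12 samples, and their ranges did not meet. F13a1 and Lyve1 (12.8) were not separated, F13a1 being the higher in 5 of 12 samples, and Lyve1 was above Folr2 (10.8) in 9 of 12, with overlapping ranges. Mrc1 (7.99) and Retnla (7.02) overlapped widely, Retnla was above Cd163 (5.6) in 10 of 12 controls, and Cd163 was above Timd4 (1.36) in 12 of 12.

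Under ANG II, Retnla (2.29 FPKM) was below Cd163 (8.73) in 12 of 12 samples with ranges that did not meet, so this pair stood in the opposite order to controls in most samples. Cbr2 (31.5) stayed the highest in the mean and was above Lyve1 (18.7) in 11 of 12 samples, and Timd4 (0.741) stayed the lowest, below Retnla in 11 of 12. Mrc1 (10.8), Folr2 (9.62) and Cd163 (8.73) overlapped.

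Of 17 genes that macrophages in general express (pan-macrophage genes), 16 rose and 0 fell, with a median log2 fold change of 0.65, and 13 were DEGs. Ctss, a lysosomal protease, changed by 1.33 ± 0.27 and Mpeg1, a pore-forming protein of the phagosome, by 1.26 ± 0.25, while Adgre1, which encodes F4/80, changed least, by less than Cd163 or Lyve1, at 0.35 ± 0.12 (log2 fold change ± SE, limma, adjusted p = 0.0325). The count of DEGs depended on samples 4 to 6 of each group, without which 3 of the 17 were DEGs.

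When the mean log2(FPKM + 1) of the pan-macrophage genes, which rose by 0.72 on that scale, was subtracted in each sample, 6 of 8 members passed as lower and 0 as higher, but 92.8% of all tested genes passed on this scale, 92.1% as lower and 0.642% as higher, so the count says nothing particular about the members. Mrc1 (limma, adjusted p = 0.0218) no longer passed as lower without samples 4 to 6 (adjusted p = 0.119) or 7 to 9 (0.162) of each group, nor did F13a1 (adjusted p = 0.00492) without samples 4 to 6 (0.0505). The subtraction lowers the log2 fold change of every gene by 0.72. On this relative scale, Retnla differed by -2.00 ± 0.26, Timd4 by -1.18 ± 0.18, Folr2 by -0.93 ± 0.15 and Cbr2 by -0.71 ± 0.16 (SE). The 12 ANG II values of relative Folr2 all lay below the lowest control, but the share of all genes separated so on this scale was not computed. Before the subtraction, Folr2 was at -0.21 and did not pass (limma, adjusted p = 0.304). Cbr2 was then at 0.01 and did not pass either (limma, adjusted p = 0.964), and the median over all tested genes was 0.05. After the subtraction, Cd163 (-0.17 ± 0.18, limma, adjusted p = 0.36) and Lyve1 (-0.24 ± 0.19, adjusted p = 0.218) did not pass, so no difference between these genes and the pan-macrophage mean was detectable.

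Of 16 other genes found in resident-type macrophages, 4 rose (Siglec1, Vsig4, Cx3cr1 and Maf) and 2 fell (Mgl2 and Ccl24), with a median log2 fold change of 0.17, and these counts are near the shares of all tested genes (20.9% higher and 12.6% lower). Siglec1, the sialoadhesin of tissue macrophages, changed by 0.57 ± 0.16 (SE, limma, adjusted p = 0.00931) and Vsig4, a complement receptor, by 0.55 ± 0.15 (adjusted p = 0.008). Mgl2, a galactose-type lectin, went from 11.9 ± 2 to 6.96 ± 1.91 FPKM (SD, n = 12 each), a log2 fold change of -0.73 ± 0.13 (SE, limma, adjusted p = 0.000148). By the criterion for DEGs, 3 were higher and 2 lower, where 4.52% of all tested genes were DEGs as higher and 1.4% as lower. Without samples 4 to 6 of each group, 1 of these 16 genes was a DEG in place of 5.

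**Figure D2:**
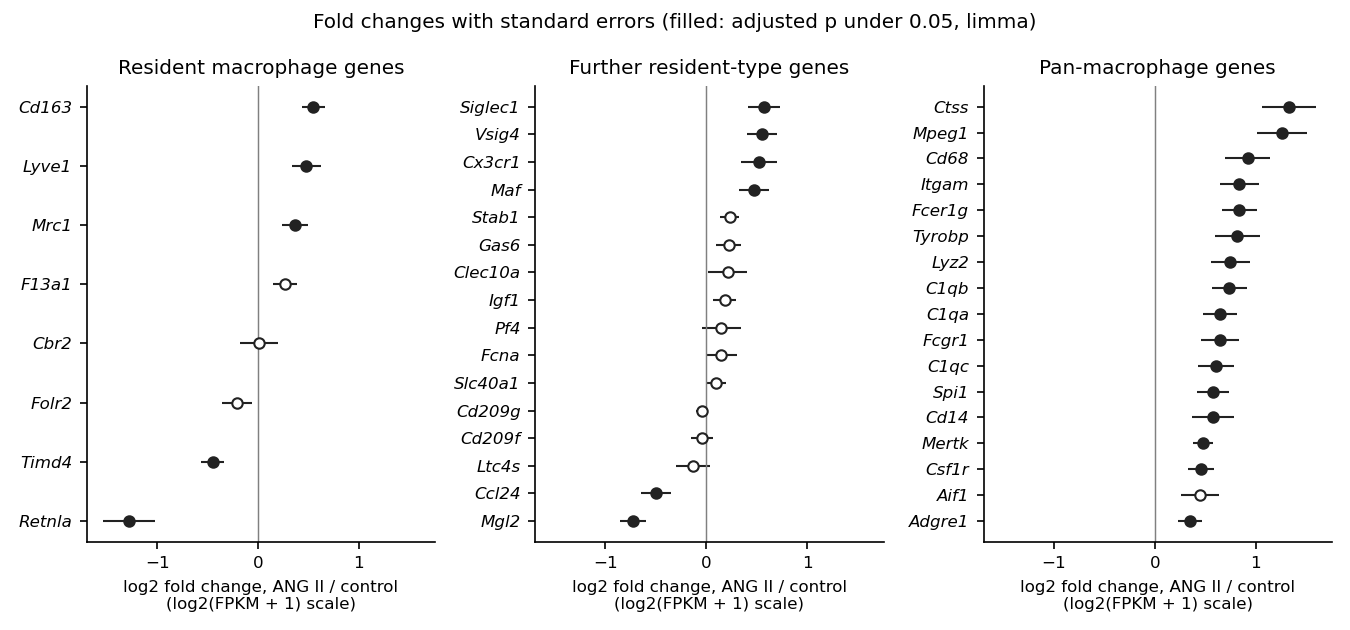
Log2 fold change of ANG II over control on the log2(FPKM + 1) scale with its standard error for the 8 members, 16 further genes of resident-type macrophages and 17 pan-macrophage genes, filled where the adjusted p from limma was under 0.05. The members and the further resident-type genes lie on both sides of 0, from Retnla at -1.28 to Siglec1 at 0.57, and all 17 pan-macrophage genes lie above 0.

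Monocyte genes were represented by 10 genes, of which 4 rose and 0 fell, with Plac8 at a log2 fold change of 0.97 ± 0.30 (SE, limma, adjusted p = 0.015), Hp at 1.05 ± 0.46 without passing (adjusted p = 0.0818) and Ifitm6 at -0.11 ± 0.16. Their summed level ran from 11.8 to 47.3 FPKM in controls and from 24.2 to 92 under ANG II, and 0 of them was a DEG without samples 4 to 6 of each group, against 3 with all samples. Plac8 and Hp each had 3 negative values, set to 0 for the log2 fold change. Of 6 dendritic cell markers, 4 rose, among them Cd209a at 0.48 ± 0.09 and Flt3 at 0.35 ± 0.07, and Zbtb46 was at 0.05 ± 0.06 (log2 fold change ± SE). The part of these cells in the values of the members was not tested.

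Genes of alternative activation, the pathway of Retnla, went in both directions. Of 14 in the tested table, 6 rose and 2 fell, where 20.9% of all tested genes rose and 12.6% fell. By the criterion for DEGs 1 was higher and 2 were lower, where 4.52% of all tested genes were higher and 1.4% lower. Il4ra, the receptor chain for interleukin-4 and interleukin-13, rose from 10.8 ± 2.46 to 17.7 ± 4.76 FPKM (SD, n = 12 each), a log2 fold change of 0.65 ± 0.13 (SE, limma, adjusted p = 0.000518). Klf4 (0.46 ± 0.12), Il13ra1 (0.38 ± 0.06), Ccl22 (0.37 ± 0.08), Ccl17 (0.34 ± 0.08) and Stat6 (0.11 ± 0.04) also rose (log2 fold change ± SE). Control and ANG II means were low for Ccl22 (0.138 and 0.493 FPKM) and Ccl17 (0.123 and 0.465 FPKM). The 2 that fell, as Retnla did, were Mgl2 and Ccl24, the latter at -0.50 ± 0.15 (limma, adjusted p = 0.0102). Both are also in the list of resident-type genes. Il33, an alarmin that promotes type-2 responses, was at 0.51 ± 0.24 without passing (limma, adjusted p = 0.0943). The other resistin-family genes in the table, Retn and Retnlg, were at 0.13 ± 0.21 and 0.02 ± 0.32 (log2 fold change ± SE), neither of which passed, and each had 3 negative values. Interleukin-4 and interleukin-13 themselves were not analysed here.

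For Timd4, the related gene Havcr2, which encodes TIM-3, moved in the opposite direction, from 0.34 ± 0.148 to 0.868 ± 0.478 FPKM (SD, n = 12 each) with a log2 fold change of 0.45 ± 0.10 (SE, limma, adjusted p = 0.00139). Of 13 receptors and adaptors for dying cells that were tested, 7 rose and 0 fell, with Cd300lf at 0.63 ± 0.13, the receptor kinase Mertk at 0.48 ± 0.10 and Stab2 at -0.01 ± 0.04 (log2 fold change ± SE). Timd4 thus went the other way from the 7 genes of this role that passed.

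Beside Cd163, genes of haemoglobin and iron handling gave 2 that rose and 0 that fell among 10 tested. Hmox1, heme oxygenase 1, went from 13.9 ± 12.3 to 42.5 ± 23.2 FPKM (SD, n = 12 each), a log2 fold change of 2.04 ± 0.52 (SE, limma, adjusted p = 0.00413), and the transferrin receptor Tfrc was at -0.12 ± 0.10. Of the Hmox1 values, 2 were negative and were set to 0 for the log2 fold change. Of 6 red blood cell markers, 5 rose, with Hba-a1 at 2.03 ± 0.43, and their summed level ran from 92.3 to 2950 FPKM in controls and from 779 to 6450 under ANG II. The part of retained blood in the rise of Cd163 was not tested. Of 6 other scavenger receptors of the cysteine-rich or related families, 1 rose and 0 fell, with Msr1 at 0.33 ± 0.14 (adjusted p = 0.0812), Marco at 0.17 ± 0.09 and Scara5 at -0.15 ± 0.12 (log2 fold change ± SE, limma).

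Relatives of the other receptors and enzymes gave further reference points. Among 5 hyaluronan receptors other than Lyve1, 3 rose, with Cd44 at 0.91 ± 0.16, Layn at 0.52 ± 0.15 and Hmmr at 0.26 ± 0.08, and Stab1 (0.23 ± 0.09) and Stab2 did not pass. In the mannose receptor family, Mrc2, a collagen receptor of mesenchymal cells, was at 0.67 ± 0.19 (limma, adjusted p = 0.00913), while Pla2r1 (0.06 ± 0.06) and Ly75 (-0.06 ± 0.03) did not pass. Of the folate receptor and carrier genes 3 were tested and 0 passed, the lowest being Slc46a1 at -0.26 ± 0.10 (adjusted p = 0.057) and the others Slc19a1 at -0.17 ± 0.08 and Folr1 at 0.09 ± 0.05.

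Among the carbonyl reductases, Cbr3 rose by 0.35 ± 0.13, Cbr1 changed by -0.39 ± 0.06 and Cbr4 by -0.15 ± 0.05, each passing, and Dcxr was at -0.16 ± 0.09. The tissue transglutaminase Tgm2, which cross-links proteins as factor XIII does, went from 121 ± 13.2 to 177 ± 22.7 FPKM (SD, n = 12 each), a log2 fold change of 0.53 ± 0.07 (SE, limma, adjusted p = 5.9e-06), and Tgm1 was at 0.08 ± 0.06. Of 9 genes for macrophage growth factors, their receptors and lineage factors, 6 rose and 0 fell, with Csf2rb at 0.83 ± 0.18, Maf at 0.47 ± 0.15 and Nr1h3 at -0.20 ± 0.11 (log2 fold change ± SE).

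The differences were also followed within the sets in which the table had been adjusted. Exact ties placed samples 1 to 3 of each group in a set, and likewise samples 4 to 6, samples 7 to 9 and samples 10 to 12, and undoing the scaling gave the difference between groups within each set of 3 and 3 samples, in FPKM before the adjustment. Retnla was lower under ANG II in all 4 sets, by -3.56, -5.36, -5.64 and -3.89 FPKM (mean -4.61, exact permutation test within sets, p = 0.00229). Cd163 was higher in all 4, by 2.29, 4, 2.99 and 3.59 (mean 3.22, exact p = 0.000713), and Lyve1 by 7.59, 7.53, 4.15 and 6.21 (mean 6.37, exact p = 0.0111). Of all genes so tested, 21.6% were higher and 12.9% lower in all 4 sets.

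Timd4 differed by -0.00667, -0.407, -1.21 and -0.82 FPKM in the 4 sets (mean -0.61, exact p = 0.00234), so it was lower in all of them but by next to nothing in samples 1 to 3. Mrc1 differed by -0.657, 6.58, 4.12 and 1.88 (mean 2.98, exact p = 0.0079) and F13a1 by -1.73, 9.2, 4.65 and 2.02 (mean 3.54, exact p = 0.0307), both highest in samples 4 to 6 and below 0 in samples 1 to 3. Folr2 (-4.67, 2.20, 0.837 and -4.03) and Cbr2 (-5.63, 17.2, 7.05 and -13.2) each went up in 2 sets and down in 2, with means of -1.42 (exact p = 0.301) and 1.35 (exact p = 0.785). Of the 8 members, 6 had an exact p under 0.05, where 41.9% of 13357 genes did.

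Leaving out a set changed the exact test for Mrc1 and F13a1. Mrc1 gave p = 0.082 without samples 4 to 6 and p = 0.0587 without samples 7 to 9 (exact tests), and F13a1 gave p = 0.213, 0.141 and 0.066 without samples 4 to 6, 7 to 9 and 10 to 12 (exact tests). Lyve1, Timd4, Cd163 and Retnla stayed under 0.05 without any of the sets. On the values as deposited, the log2 fold changes ranged between sets from -0.63 to 0.69 for Cbr2 and from 0.46 to 0.66 for Cd163. On these values no member passed the test of a difference between sets (limma F test, lowest adjusted p = 0.203 for Timd4), which 7.49% of all genes passed. Without adjustment 0 members reached p under 0.05 in that test, where 25% of all genes did.

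**Figure D3:**
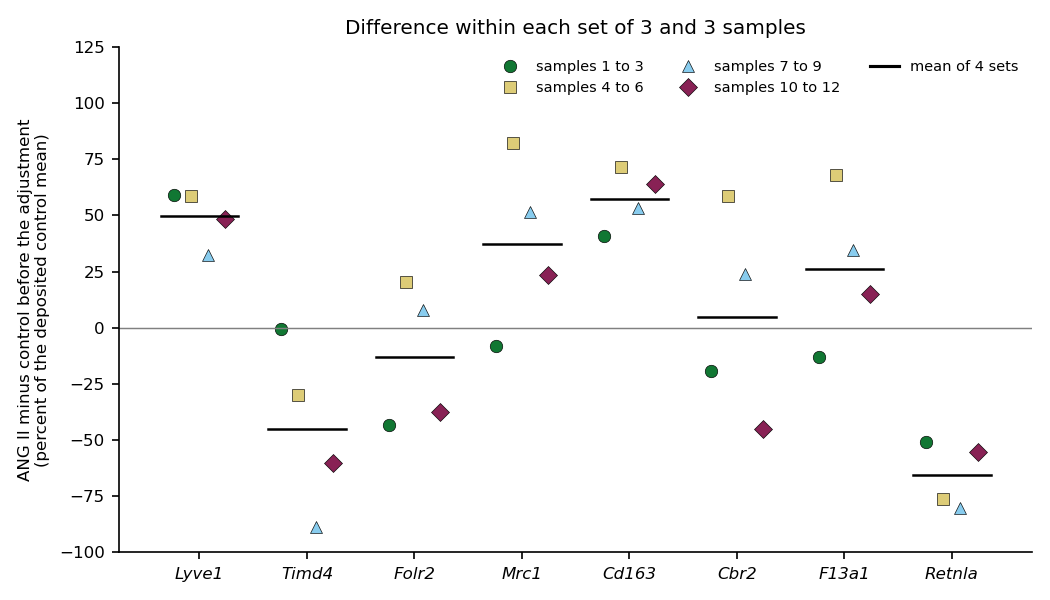
ANG II minus control difference in FPKM before the adjustment, as a percent of the deposited control mean, within each set of 3 and 3 samples for the 8 members, with a line at the mean of 4 sets. Retnla, Cd163 and Lyve1 keep to one side of 0 in every set, and Folr2 and Cbr2 lie on both sides.

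Across the 24 samples, with the mean of each group removed, the members formed overlapping pairs rather than a single block. Pearson r of log2(FPKM + 1) was 0.84 for Folr2 and Cbr2, 0.83 for Lyve1 and Cd163, 0.81 for Cbr2 and F13a1, 0.81 for Mrc1 and F13a1 and 0.72 for Mrc1 and Cd163. Cd163 and Cbr2 (0.04), Lyve1 and Cbr2 (0.01) and Cd163 and Folr2 (0.02) had almost none. Of the members that fell, Retnla had its highest r with Lyve1 (0.53), as high as that of Folr2 and Mrc1 (0.53), and Timd4 had its highest with Retnla (0.44). These are descriptions over 24 samples that share their libraries and the adjustment, and they carry no test.

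Part of this pattern rested on ANG II sample 12 and control sample 3, the samples in which long and short genes differed most. The longest coding transcripts of the members ranged from 599 bases (Retnla), 1110 (Cbr2) and 1204 (Folr2) through 2173 (Timd4), 2893 (Lyve1) and 3952 (F13a1) to 4443 (Cd163) and 5374 (Mrc1). Among genes of mean FPKM of at least 1, 1598 had at most 1500 bases and 4945 over 3500 bases. In ANG II sample 12 the median deviation from the control mean was -0.22 for the short and 0.11 for the long genes, and in control sample 3 it was 0.27 and -0.12. The log2 level of Cbr2 minus that of Cd163 was lowest in ANG II sample 12 (-0.42, against a median of 1.87 in its group) and, among controls, highest in control sample 3 (2.74, against a median of 2.12). Without these samples r was 0.56 for Cd163 and Cbr2, 0.41 for Lyve1 and Cbr2, 0.52 for Cd163 and Folr2, 0.79 for Lyve1 and Cd163 and 0.64 for Lyve1 and Retnla. Among Lyve1, Cd163, Mrc1, F13a1, Cbr2 and Folr2, r then ran from 0.41 to 0.86, so separate pairs were less distinct. Since both samples are also the extremes of Cbr2 minus Cd163, leaving them out by itself tends to raise r of that pair. In ANG II sample 12, F13a1 was the lowest of its group (11.7 FPKM), and Retnla was at 2.07 FPKM against a group median of 2.27. The part of transcript length in these r was not tested.

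**Figure D4:**
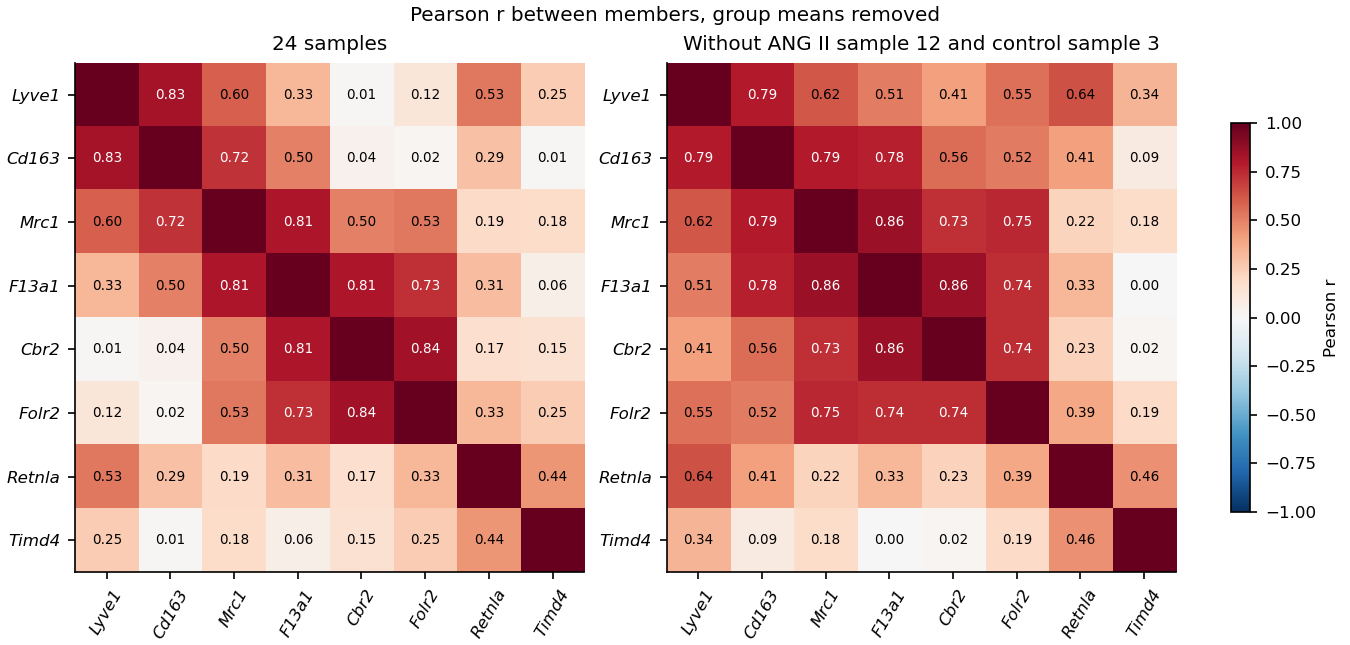
Pearson r between members over 24 samples (left) and without ANG II sample 12 and control sample 3 (right), with group means removed, on a scale from -1 to 1. The values of Cbr2 and Folr2 with Cd163 rise from 0.04 and 0.02 to 0.56 and 0.52, and Timd4 stays near 0 with Cd163 and F13a1.

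**Figure D5:**
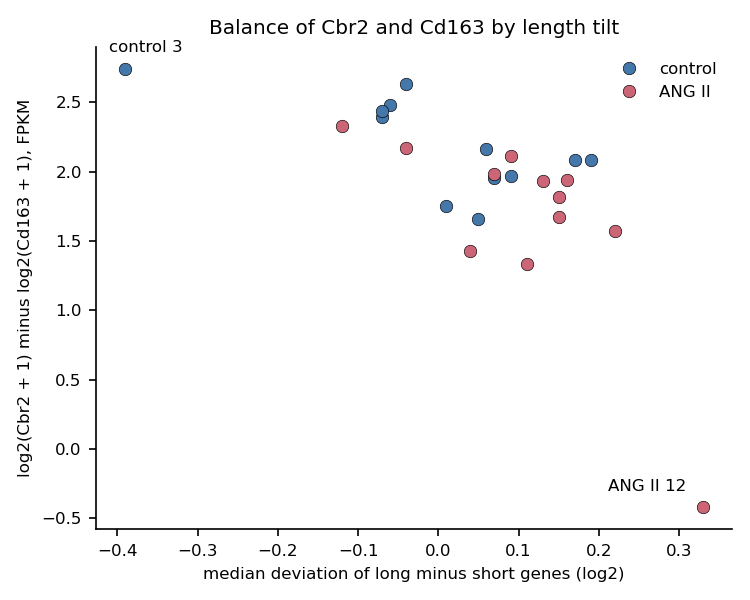
Log2 level of Cbr2 minus that of Cd163 against the median deviation of long minus short genes in each of 24 samples, coloured by group. ANG II sample 12 lies alone at the lower right (-0.42) and control sample 3 at the upper left (2.74).

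The fold changes of the members were less affected. Without both samples Retnla was at -1.23, Timd4 at -0.44, Cd163 at 0.47 and Lyve1 at 0.40, all of which passed, and Mrc1 was at 0.35 (limma, adjusted p = 0.0574). Folr2 moved from -0.21 to -0.07 and Cbr2 from 0.01 to 0.17, and neither passed. Retnla was then the only DEG among the members, since Cd163 fell under the limit of 0.5. Over all tested genes the median log2 fold change was -0.03 for the short and 0.08 for the long class.

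The genes whose levels followed each member most closely over the 24 samples, with group means removed, differed from member to member. For F13a1 they were Vsig4, Sash3 and Cd37 (r = 0.85, 0.85 and 0.84), all genes of leukocytes, and for Mrc1 they were Aoah, Pip4k2a and Pros1 (0.90, 0.89 and 0.89). Folr2 followed Cnpy2, Wfdc17 and Ppia (0.90, 0.89 and 0.89), Cbr2 followed Kcnab2, Sh3bgrl3 and Ddx39b (0.88, 0.88 and 0.84), Cd163 followed Gda, Scfd1 and Mylip (0.88, 0.87 and 0.85) and Lyve1 followed Irak3, Cntfr and Acer2 (0.86, 0.85 and 0.85). The closest genes of Retnla (Wif1, AI464131 and Gsn, 0.68, 0.66 and 0.60) and of Timd4 (Gbp4, Trmt5 and Rbmx, 0.69, 0.68 and 0.67) had lower values. They are the highest of 11450 genes compared with each member, chosen for that value, and carry no test.

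The tissue itself was identified by its markers. Of 6 cardiomyocyte markers, 0 rose and 3 fell, with summed levels of 39400 to 49400 FPKM in controls and 29300 to 42600 under ANG II, and Tnni3 at -0.63 ± 0.08. Of 6 fibroblast markers 3 rose and of 6 blood endothelial markers 1 rose and 1 fell, while 0 of 5 tested adipocyte markers passed. In lymphoid and granulocyte lists 1 of 6 neutrophil markers (Csf3r) and 1 of 5 T cell markers (Cd3g) rose, 1 of 4 B cell markers (Cd79a) fell and 0 of 3 mast cell and eosinophil markers passed. FPKM totals ranged from 460715 to 515185 under ANG II and from 482319 to 567727 in controls, and the number of reads per sample is not in the table, so counting error could not be given.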

How the data were processed

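Total RNA of the left ventricle was enriched with oligo(dT) and sequenced, and the authors deposited 1 FPKM value for each of 14912 genes in 24 samples. The submitters' processing notes name HISAT, Bowtie2 and RSEM. Versions, genome build and annotation are not given in the sources used here, and 4 further samples per group of the study were not analysed here. The deposited FPKM had been adjusted after they were computed, by a step that the methods do not name: 2741 values (0.766%) are negative, and 282 to 600 genes are tied within a set and group of samples against at most 82 in any other pair. The unit is therefore FPKM shifted and scaled gene by gene in 4 sets of samples.

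Negative values were replaced by 0. Genes whose mean FPKM was 0.1 or more entered the test, which fitted log2(FPKM + 1) with limma 3.58.1 (R 4.3.3, intensity trend, two-sided, Benjamini-Hochberg over 14026 genes) on all 24 samples. The labels number the mice 1 to 12 in each group without saying that numbers pair them. The limma p-values measure the spread between these samples after the adjustment, which rescaled it set by set. The adjustment used the groups, so labels are exchangeable only with the scaling undone. On deposited values the exact test gave smaller p for Retnla (0.00036 against 0.0023), Cd163 (0.000125 against 0.00071) and Lyve1 (0.0041 against 0.011). Timd4 and Cbr2 also had a smaller p there, and Mrc1, F13a1 and Folr2 a larger one. Single values were also tested by permutation (100000 resamples). The scaling of each set was recovered from steps of 0.01 FPKM, which gave a single solution for all 8 members and for 93% of genes, and differences within sets were tested over all 160000 relabelings. In a test on simulated data, 396 of 400 genes were recovered and 0 wrongly. With a simulated shift of 1.5 in log2 level, limma called 200 of 200 shifted genes and 2 unchanged genes in 14026. This shift is larger than the change of any member with the pseudocount of 1, and recovery of changes as small as theirs was not tested. Motifs were searched in RefSeq promoters (GRCm38.p6), in which 7 members have an entry, and positions and transcript lengths are from GENCODE vM21 (GRCm38). Python 3.11.15, pandas 2.3.3 and numpy 2.4.6 did the rest.

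The members and gene lists were chosen with earlier results of these data known. Named genes are the members, the 2 genes with the largest and the 1 with the smallest log2 fold change of each list (nearest to 0 where all had 1 direction), all genes of small families, and for each member the 3 genes of mean FPKM of at least 1 with the highest r. Cx3cr1, Ccl24, Klf4, Il13ra1, Ccl22, Ccl17, Stat6 and Ccl21a fall outside this rule and were named after their values were seen. Alternatives were other pseudocounts, filters, scalings and tests, the replicate number as a block, the set as a term, and leaving out each sample or set. A correction for transcript length, leaving out ANG II sample 12 with control sample 3, and leaving out sets before the adjustment were chosen after seeing the data.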

Additional observations from a re-analysis of the deposited data

How the results depend on the processing

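The direction and the call of Retnla, Timd4, Cd163 and Lyve1 at an adjusted p under 0.05 held under each alternative run, and 5 members passed under each normalization, filter and pseudocount tried and under the Wilcoxon rank-sum test. The count of DEGs among the members was 2, and it was 4 with a pseudocount of 0.1 and 4 with 0.01, where Timd4 (-0.90 and -1.02) and Lyve1 (0.51 and 0.51) joined Cd163 and Retnla (-1.79 and -2.10), 5 by adjusted p alone, and 1 with the trend with transcript length removed or without ANG II sample 12 and control sample 3. Under quantile normalization it stayed 2 but 0 were higher and 2 lower, since Cd163 (0.47) was no longer a DEG and Timd4 (-0.56) became one. Without single samples it ran from 2 to 3. No sign of pairing by replicate number was seen, since same-numbered deviations correlated between -0.557 and -0.00109 and 0 of 12 numbers lay above 0.1. These deviations are of values already adjusted in sets, so the check cannot exclude pairing. With the replicate number as a block, 2 members were DEGs and 4 passed, Mrc1 having an adjusted p of 0.0917, and over all genes there were 715 DEGs in place of 831. Mrc1 also had an adjusted p of 0.0715 without samples 7 to 9 and 0.052 without samples 10 to 12. The near-zero log2 fold change of Cbr2 was -0.03 under quantile normalization, -0.02 under median-ratio scaling, -0.21 without samples 4 to 6, -0.07 without samples 7 to 9, 0.11 without samples 1 to 3, 0.23 without samples 10 to 12, and from -0.06 to 0.15 without single samples. Relative to the pan-macrophage genes, Cd163 was at 0.02 without samples 4 to 6, Lyve1 passed at -0.47 without samples 1 to 3, Mrc1 no longer passed without samples 4 to 6 (-0.30) or 7 to 9 (-0.24), and F13a1 no longer passed without samples 4 to 6 (-0.39). In the other lists, 42 DEGs became 17 without samples 4 to 6. Over all genes there were 1489 DEGs with a pseudocount of 0.1, 1514 with 0.01 and 552 without samples 4 to 6, and the share of higher DEGs was 76.3%, against 62.6% (461 higher and 275 lower) under quantile normalization, 58.3% without samples 4 to 6. The causes were not tested. The number of reads is unknown, which limits what can be said of Timd4 and of other genes near 1 FPKM.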
